A study of Populus tomentosa with 15 samples.

Results

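The transcripts of ascorbate-treated *PtomtAPX*-antisense cells were compared with those of untreated wild-type cells. The comparison took 6 of the 15 libraries of the series: 3 of *anti-3*-A and 3 of WT. All are suspension cells of *Populus tomentosa*, a white poplar, kept shaken in liquid medium in the dark and collected 5 days after subculture. *anti-3*-A is the antisense line *anti-3* given 1 mM ascorbate (AsA) for 3 h, and WT is the untransformed culture with no addition. The other groups are *anti-3* with no addition, the *PtomtAPX*-overexpressing cells *OX*, and *OX*-H, which are *OX* cells given 10 mM H2O2 for 3 h. *anti-3* is a single transgenic line made with an antisense construct in a binary vector, and the *OX* cultures needed an added cytokinin to grow. No WT culture with AsA was analysed here, so the antisense line and the AsA cannot be told apart in this contrast. The labels do not say whether the 3 libraries of a group came from separate cultures, so the p-values measure the spread between these libraries, which may be technical.

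*PtomtAPX* encodes an ascorbate peroxidase of mitochondria, an enzyme that uses AsA to reduce H2O2 to water. The oxidized ascorbate is returned to AsA with glutathione as the reductant, in the ascorbate-glutathione cycle. H2O2 also acts outside mitochondria, in the cell wall, where class III peroxidases use it to cross-link wall polymers. The study added AsA to the antisense cells, and comparing *anti-3*-A with WT asks which transcripts then differed from the wild type. The level of *PtomtAPX* itself is not analysed here, because the identifiers of the table are not paired with its name.

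Of 42635 features in the table, 22942 (53.8%) reached an FPKM of 1 in 3 or more of the 6 libraries and were tested. FPKM is the number of reads on a gene scaled by its length and by the library total. Worked back from the FPKM values, the reads on genes were 19517849 to 21278437 in the WT libraries and 16842815 to 17695808 in the *anti-3*-A libraries. Replicates correlated at 0.99 or more across genes on the log2(FPKM + 1) scale. In a principal component analysis of WT, *anti-3* and *anti-3*-A, the first component (81.7% of the variance) placed *anti-3*-A between -48.2 and -44.6, WT between -48.2 and -43.5, and *anti-3* between 90.5 and 93.9. The second component (10.9%) separated *anti-3*-A, at 26.4 to 32.4, from WT, at -30.8 to -27.6. No library stood apart from its group.

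Most transcripts of *anti-3*-A lay close to the WT level. The median log2 fold change over all tested genes was 0.02. On the log2(FPKM + 1) scale, the 95% interval of the fold change lay within 1.5-fold of WT in either direction for 16494 genes (71.9%). Differentially expressed genes (DEGs) had a Benjamini-Hochberg adjusted p below 0.001 in limma and an absolute log2 fold change above 1.5 on the log2(FPKM + 1) scale. Fold changes on this scale are too small for genes of low FPKM, so counts of genes within 1.5-fold can include low genes whose FPKM differed by more. There were 113 DEGs, 0.493% of the genes tested, of which 41 (0.179%) were higher and 72 (0.314%) lower in *anti-3*-A. Their libraries did not overlap between the groups in any of the 113, as was so for 50.2% of all tested genes. The median log2 fold change was 1.79 for the higher and -1.79 for the lower DEGs. Smaller differences were common. At an adjusted p below 0.05, 4885 genes (21.3%) were higher and 4271 (18.6%) lower, together 39.9% of the tested genes. Of these 9156 genes, 6928 differed by less than 1.5-fold on the log2(FPKM + 1) scale. These are bulk libraries, in which fewer cells that express a gene and less RNA per cell cannot be told apart.

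**Figure D1:**
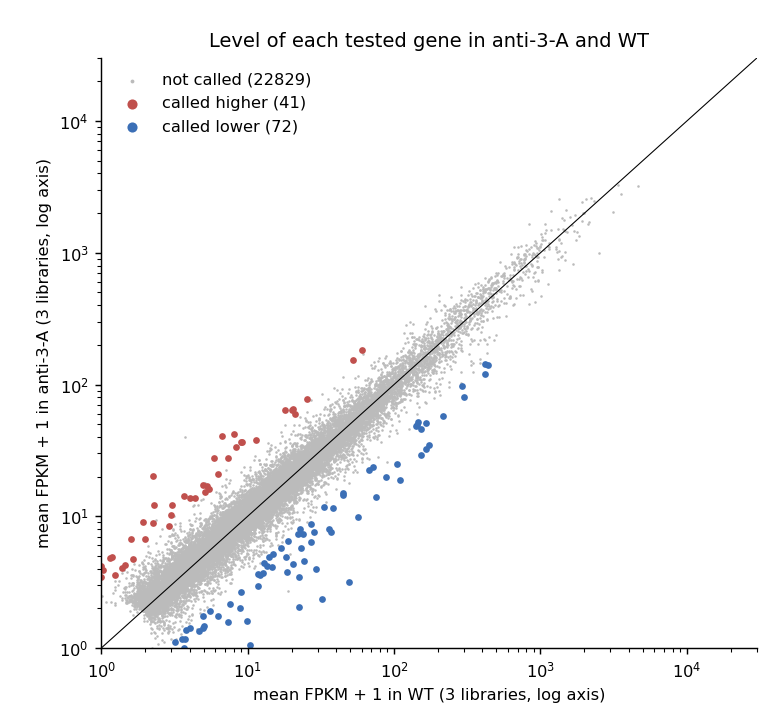
Mean FPKM + 1 of each of the 22942 tested genes in WT (x) and *anti-3*-A (y), both on log axes, over 3 libraries each, with the line of equal levels. The 41 DEGs that were higher (red) and the 72 that were lower (blue) lie at the edges of a cloud of genes that follows the line.

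Gene ontology (GO) terms were at hand for 36 DEGs, 14 higher and 22 lower. The largest fall on the log2(FPKM + 1) scale was in a gene of surface lipid formation, whereas by the ratio of mean FPKM POPTR_0006s18820 (168-fold) and POPTR_0008s13040 (23.1-fold) fell further than its 22.3-fold. POPTR_0014s08130 carries the terms glycerol-3-phosphate 2-O-acyltransferase activity and cutin biosynthesis, while the study's text lists it as a phosphatase. Its FPKM was 50.2, 45.0 and 50.6 in the WT libraries and 1.81, 2.50 and 2.21 in the *anti-3*-A libraries. All 3 treated libraries lay far below all WT libraries, at 4.48% of the WT mean, and the log2 fold change was -3.97 ± 0.13 (SE; limma, adjusted p = 7.59e-11). Its mean was 2.35 in *anti-3*, 8.58 in *OX* and 18.8 in *OX*-H, so that none of the transgenic groups reached the WT level of 48.6. It is the single tested gene of the 6 listed for cutin biosynthesis, the lipid polyester of the plant surface.

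The lower DEGs included a gene with a term of H2O2 catabolism and genes of the cell wall, some of them highly expressed. Tested peroxidases went both ways, as given further on. POPTR_0006s13190, a heme protein with the terms hydrogen peroxide catabolism and cell wall organization, had an FPKM of 129, 165 and 160 in WT and 34.5, 20.1 and 30.4 in *anti-3*-A. The treated libraries fell to between 20.1 and 34.5 with no overlap, and the log2 fold change was -2.40 ± 0.15 (limma, adjusted p = 1.75e-08). Its mean in untreated *anti-3*, 29.1, was close to the 28.4 after AsA. POPTR_0014s14310, a xyloglucan endotransglucosylase/hydrolase (XTH), an enzyme that cuts and rejoins the xyloglucan chains tethering cellulose, fell from 25.9 ± 3.30 to 7.75 ± 1.57 FPKM (SD, n = 3 each). Its mean in *anti-3* was 22.1. POPTR_0019s12370, a wall hydrolase of O-glycosyl bonds, fell from 415 ± 44.8 to 142 ± 3.34 FPKM, with 89.6 in *anti-3*. POPTR_0015s01000, whose terms name heme binding but no enzyme activity or wall function, fell from 434 ± 29.0 to 140 ± 32.5, with 112 in *anti-3*. These last genes had 13001 and 20825 reads in the WT libraries together.

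The DEGs that fell included 2 inhibitors of proteases. POPTR_0014s14680, annotated as an inhibitor of cysteine proteases, was at 70.3, 42.8 and 53.5 FPKM in WT and at 8.53, 7.27 and 11.03 in *anti-3*-A. The highest treated library stayed well below the lowest WT library, and the log2 fold change was -2.50 ± 0.20 (limma, adjusted p = 1.62e-07). Its mean was already low in untreated *anti-3*, at 6.58, beside 8.94 in *anti-3*-A. POPTR_0770s00220, annotated as an inhibitor of serine proteases and with response to wounding, was at 11.1, 19.8 and 21.1 in WT and at 3.49, 5.81 and 2.30 in *anti-3*-A. The mean of this gene was 43.1 in *anti-3* and 59.7 in *OX*, above WT, and 3.87 in *anti-3*-A and 6.05 in *OX*-H, below WT. Such inhibitors block the breakdown of proteins, in many plants after wounding or attack.

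A gene of lignan synthesis was likewise below WT after AsA and above it in untreated *anti-3*. POPTR_0009s12070, with the terms lignan biosynthesis and oxidation-reduction, had an FPKM of 19.7, 25.3 and 24.6 in WT and of 4.77, 2.88 and 3.06 in *anti-3*-A. Lignans are phenolic dimers that share their precursors with lignin. The log2 fold change was -2.42 ± 0.13 (limma, adjusted p = 2.25e-09), with every treated library under every WT library. In *anti-3* the mean was 202, in *OX* 262 and in *OX*-H 46.0, all above the WT mean of 23.2. *anti-3*-A was the only group of the transgenic cells with a mean below WT.

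POPTR_0008s13040, a gene with the term response to biotic stimulus, had an FPKM of 21.8, 32.3 and 38.8 in WT and 1.44, 1.42 and 1.18 in *anti-3*-A. The treated level was 4.34% of WT and the log2 fold change -3.74 ± 0.17 (limma, adjusted p = 5.09e-10). Its means lay in opposite directions in the remaining groups, at 3.98 in *anti-3*, 609 in *OX* and 739 in *OX*-H. POPTR_0002s03190, annotated as a cytokinin dehydrogenase, the enzyme that degrades the growth hormone cytokinin, fell from 6.38 ± 0.483 to 0.561 ± 0.252 FPKM (SD, n = 3 each). It was also low in *anti-3* (0.355) and *OX* (0.307). POPTR_0007s14750, with growth factor activity, was 4.06 ± 0.595 in WT and 3.97 on average in *anti-3* but 0.468 ± 0.296 in *anti-3*-A, where 21 reads remained of 213 in WT. Its means in *OX* and *OX*-H were also low, at 0.394 and 0.739. The secreted-protein genes POPTR_0001s29530 and POPTR_0006s14510 fell from 5.29 to 0.737 and from 3.96 to 0.415. The dimerizing protein gene POPTR_0005s06220 fell from 26.0 to 5.35, and the oxidation-reduction gene POPTR_0006s09080 from 11.1 to 2.58. In the order named, the *anti-3* means of these genes were 0.726, 0.60, 5.38 and 5.33.

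Among the rises with a term, the largest on the log2(FPKM + 1) scale were in genes of heme and iron binding proteins. By the ratio of mean FPKM the order differed. POPTR_0014s05620 and POPTR_0003s16850, which have few or no reads in WT and are described further on, rose most. POPTR_0014s03670 (11.1-fold), POPTR_0014s03690 (8.79-fold) and POPTR_0015s07080 (8.06-fold) also exceeded the 7.05-fold of POPTR_0014s00980. POPTR_0014s00980, a heme and iron binding protein, had an FPKM of 6.39, 4.81 and 5.76 in WT and 40.2, 37.3 and 42.1 in *anti-3*-A. The treated libraries were 7.05-fold higher on average with no overlap, and the log2 fold change was 2.62 ± 0.13 (limma, adjusted p = 1.47e-09). Its mean in *anti-3* was 20.4, between the WT and the treated level. POPTR_0014s03690, whose terms describe a monooxygenase of secondary metabolism that uses NAD(P)H and heme iron, was 1.38, 1.58 and 0.882 in WT and 10.1, 11.7 and 11.98 in *anti-3*-A. The log2 fold change was 2.44 ± 0.12 (limma, adjusted p = 1.92e-09). Its mean in *anti-3* was 17.2, above the treated level. The iron-binding POPTR_0014s03670, close by in identifier number, rose from 0.232 to 2.59 on 9 and 87 reads, with 2.71 in *anti-3*. Reads of neighbouring genes of one family may be shared, since the treatment of reads with several matches is not given in the sources used here.

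Among the DEGs that rose were 3 genes of transport. POPTR_0006s11090, annotated as a carrier of UDP-galactose, a sugar nucleotide used in the Golgi to build wall polysaccharides, had an FPKM of 3.08, 2.53 and 2.38 in WT and 11.8, 14.1 and 13.8 in *anti-3*-A. The treated libraries lay apart from WT, and the log2 fold change was 1.96 ± 0.09 (limma, adjusted p = 5.09e-10). Its mean in *anti-3* was 20.25, above the treated level. POPTR_0015s07080 and POPTR_0018s14650, annotated as ATPases that drive transport across membranes, rose from 0.377 to 3.04 and from 0.646 to 3.75 FPKM. The mean of POPTR_0015s07080 was 8.01 in *anti-3*, above the treated level, and that of POPTR_0018s14650 was 1.98 in *anti-3*, below it. Without WT replicate 2 the log2 fold change of POPTR_0015s07080 was 1.48, and without *anti-3*-A replicate 2 that of POPTR_0018s14650 was 1.29, under the threshold.

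In further rises, as in POPTR_0014s03690 and POPTR_0006s11090, the AsA-treated level stood between WT and untreated *anti-3*. POPTR_0012s02470, whose terms name only the binding of heterocyclic compounds, was at 9.02, 6.69 and 8.89 FPKM in WT and at 33.1, 37.7 and 36.5 in *anti-3*-A. Its mean was 329 in *anti-3* and 688 in *OX*, so the treated cells were nearer to WT than to *anti-3*. POPTR_0012s10290, with the same terms, was 7.95 ± 0.919 in WT, 35.3 ± 1.62 in *anti-3*-A and 93.5 on average in *anti-3*. POPTR_0016s09000, whose terms concern the control of a viral process by the host, was 17.0 ± 1.09, 63.2 ± 4.27 and 161 in the same order. POPTR_0003s14360 had the most reads of the annotated rises, 7790 in WT and 19507 in *anti-3*-A, and its FPKM was 51.7 ± 4.06 and 152 ± 16.6, with 261 in *anti-3*. In POPTR_0018s10430, an extracellular protein gene, the order was different. Its FPKM was 6.10, 7.43 and 5.63 in WT, 26.8, 23.9 and 28.8 in *anti-3*-A and 8.10 on average in *anti-3*.

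**Figure D2:**
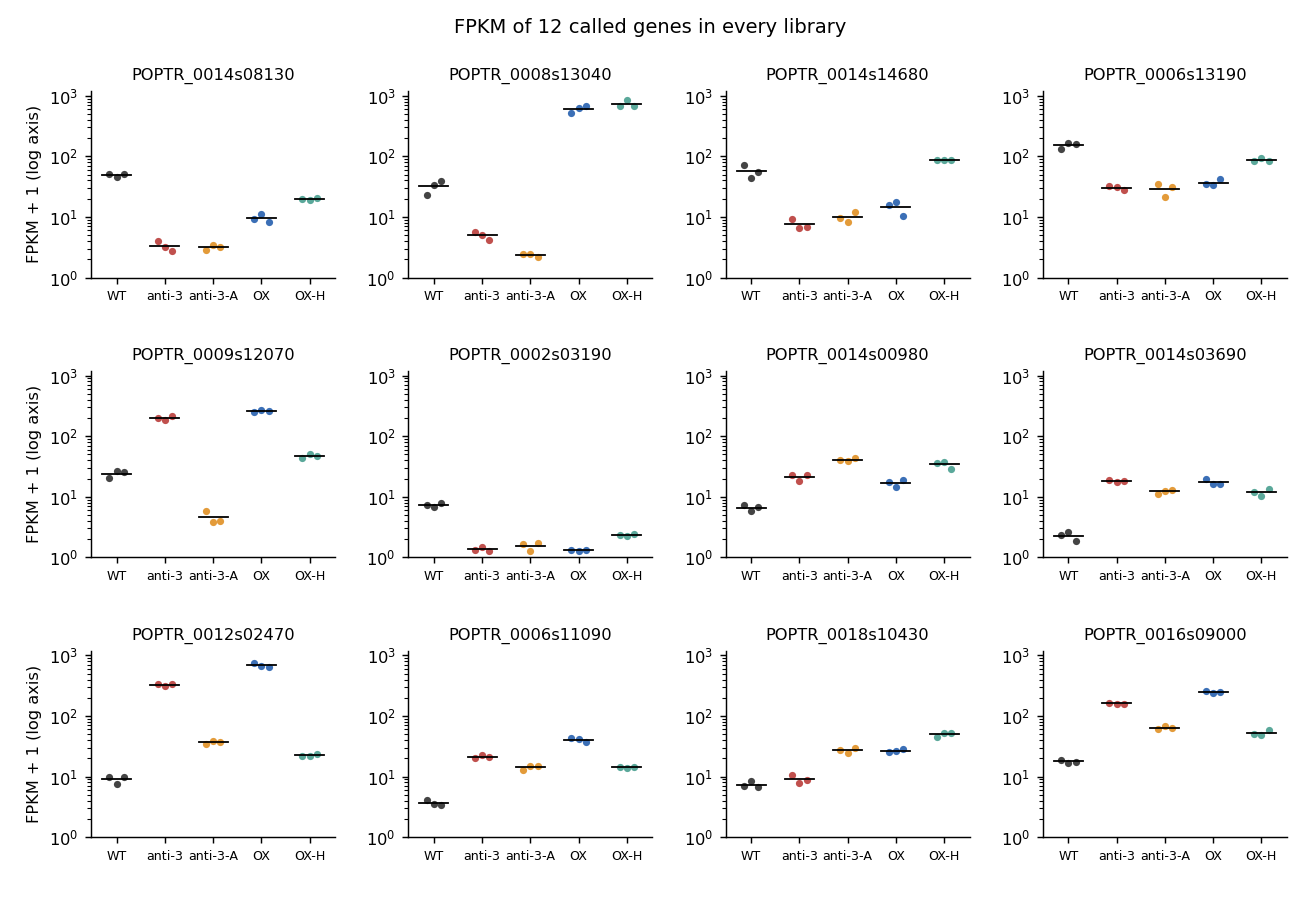
FPKM + 1 (log axis, the same range in each panel) of 12 DEGs in all 15 libraries, with 3 points per group and a bar at the mean of the 3. The first 6 panels are falls and the last 6 are rises against WT; POPTR_0009s12070 is above WT in *anti-3*, *OX* and *OX*-H and below it in *anti-3*-A.

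Some DEGs were near absence in one of the groups. POPTR_0003s16850 had 0 reads in the WT libraries and 30 in *anti-3*-A, which makes it at least 11.7-fold higher against a floor of 3 reads over the WT group. POPTR_0014s05620 had 2 reads in WT and 175 in *anti-3*-A, a ratio of 102.7 with a 95% counting interval of 28.0 to 855. Its mean was 2.90 FPKM in *anti-3*, 2.83 in *OX* and 1.72 in *OX*-H, against 0.0288 in WT, so the transcript was present in each transgenic group. POPTR_0006s18820, which has no term, had 394 reads in WT and 2 in *anti-3*-A, a ratio of 167.9 with an interval of 46.2 to 1390. It stood at 0.0847, 0.254 and 0.0591 FPKM in *anti-3*, *OX* and *OX*-H against 9.37 ± 0.387 in WT. The intervals cover counting error only. The other DEG without a term among the largest falls, Novel00037, a gene model outside the reference annotation, varied in WT from 10.8 to 36.1 FPKM and was 0.410 to 1.43 in *anti-3*-A.

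A short non-coding feature, ENSRNA049494359, rose most by log2(FPKM + 1). Its mean FPKM was 15.4-fold higher, against 99.7-fold for POPTR_0014s05620. Of the 41 higher DEGs, 7 have ENSRNA identifiers, as do 78 of the tested features, a share of 8.97% called against 0.493% overall. The 7 features are 72 to 90 bp long and rest on 18 to 294 reads in the 3 *anti-3*-A libraries together. ENSRNA049494359, of 77 bp, had 1, 4 and 1 reads in the WT libraries and 24, 28 and 25 in the *anti-3*-A libraries. ENSRNA049493724, of 87 bp, went from 7.08 ± 4.04 to 41.2 ± 3.36 FPKM. All 3 treated libraries were above all WT libraries in both. The median log2 fold change of the 78 features was 0.49, beside 0.02 for all genes. Their median length was 122.5 bp, below the length of the cDNA fragments that the labels give as selected for sequencing, and the part of this in the result was not tested. The table holds 967 ENSRNA features, most of which did not pass the filter. ENSRNA049494453, one of the DEGs, was under 1 FPKM in every WT library and passed only through *anti-3*-A. For such low features the filter favours rises, so the share called and the median are no measure of all ENSRNA features.

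Next, gene lists were followed member by member, to see whether functions that the study links to the transgenic lines differed from WT after AsA. The lists are GO terms that the study found in DEGs of *anti-3* or *OX*, so they were chosen on these samples and their counts are not independent evidence. At the DEG threshold they held few members: 1 XTH, 1 peroxidase, 1 peptidase inhibitor, 1 nucleosome gene and the cutin gene were lower, and 2 primary active transporters were higher. The cysteine protease inhibitor POPTR_0014s14680, also a DEG, is not on the peptidase inhibitor list. The counts that follow are of members with an adjusted p below 0.05 in limma, to be read against 21.3% higher and 18.6% lower over all genes.

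Tested genes of the XTH, apoplast and chitinase lists were lower or did not pass the test. Of 17 tested XTHs, 10 were lower and the other 7 did not pass the test, with a median log2 fold change of -0.44 and a range of -1.63 to 0.29. POPTR_0013s14860, the most abundant of them, fell from 286 ± 10.8 to 124 ± 14.4 FPKM, and its mean in *anti-3* was 65.2. POPTR_0002s06130 fell from 44.5 ± 2.32 to 19.2 ± 3.72 but was at 104 in *anti-3*. All 8 tested members of the apoplast list, the space outside the plasma membrane, were lower, and 7 of them are XTHs. Chitinases, which cut chitin, were lower in 7 of 13, and the other 6 did not pass, with a median of -0.35. The most abundant, POPTR_0004s18870, went from 2150 ± 123 to 1713 ± 361 FPKM (limma, adjusted p = 0.0388).

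Chromosome proteins and replication genes differed from WT in opposite directions. Of 22 nucleosome genes, which encode the histones that package DNA, 13 were lower and 1 higher, with a median log2 fold change of -0.55. POPTR_0007s13930 fell from 139, 144 and 145 FPKM in WT to 49.3, 47.0 and 48.7, and POPTR_0006s08230, the most abundant, from 758 ± 3.45 to 479 ± 10.2. Of 21 DNA replication genes, 15 were higher and the other 6 did not pass, with a median of 0.48 and a range of -0.13 to 0.75. POPTR_0001s12380 rose from 15.8 ± 0.441 to 27.4 ± 1.48 FPKM, and POPTR_0009s12440 from 17.1 ± 0.636 to 26.1 ± 1.35. In untreated *anti-3*, compared with the same WT libraries, the medians were -1.64 for the nucleosome and -1.47 for the DNA replication list. The means of POPTR_0006s08230 and POPTR_0001s12380 there were 248 and 4.37 FPKM. Both functions are used in S phase of the cell cycle, when DNA and histones are made together.

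Genes of protein folding were higher or did not pass the test. Of 19 genes of unfolded protein binding, whose products help proteins to fold, 13 were higher and the other 6 did not pass, with a median log2 fold change of 0.29 and a highest value of 0.86. POPTR_0016s00510 rose from 72.0 ± 2.94 to 132 ± 8.79 FPKM, against 672 in *anti-3*. POPTR_0007s01250 was 11.6 ± 0.116 in WT, 11.4 ± 1.04 in *anti-3*-A (limma, adjusted p = 0.876) and 204 in *anti-3*. Of 21 glutathione transferases, which join glutathione to reactive compounds, 10 were higher and 4 lower, with a median of 0.27. POPTR_0011s11450 rose from 77.8 ± 7.55 to 159 ± 11.2 FPKM, whereas POPTR_0006s13580 fell from 238 ± 22.2 to 95.2 ± 3.86, although both were higher in *anti-3*, at 547 and 834. The list medians in *anti-3* were 2.32 and 2.15. Primary active transporters, pumps driven by ATP, had the highest median of the lists, 1.03. Of 10 tested, out of 23 listed, 7 were higher and 2 lower, all at a mean under 6 FPKM in WT and *anti-3*-A. The DEGs of the list, POPTR_0015s07080 and POPTR_0018s14650, were under 1 FPKM in every WT library and passed the filter only through *anti-3*-A. For such low genes the filter favours rises, so the median and these counts are no measure of the whole list.

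Redox genes were mixed. Of 14 tested peroxidases, 7 were lower and 5 higher. Besides POPTR_0006s13190, POPTR_1332s00200 fell from 5.24 ± 0.594 to 2.23 ± 0.415 FPKM, whereas POPTR_0661s00200 rose from 15.95 ± 1.32 to 42.7 ± 3.25 and POPTR_0001s09270 from 86.0 ± 2.42 to 136 ± 16.8. The last was at 880 in *anti-3*. Of 21 genes of cell redox homeostasis, 5 were higher, 3 lower and 16 bounded within 1.5-fold of WT, with a median of 0.10. Of 8 genes of response to oxidative stress, 3 were higher and 3 lower, and 6 of the 8 are also on the peroxidase list. Photosynthesis genes, a readout of greening in these dark-grown cells, were lower in 5 and higher in 2 of 19, with a median of -0.01. Calcium-transporting ATPases, with a median of 2.07 in *anti-3*, were higher in 3 of 7, with a median of 0.16.

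The remaining lists were small or mixed. Of 11 peptidase inhibitors, 4 were lower and 1 higher, with a median of -0.24. Of 18 protein serine/threonine phosphatases, 8 were higher and 6 lower, and of 21 genes of response to auxin, the growth hormone, 3 were higher and 6 lower, with medians of -0.09 and -0.08. Genes of iron-sulfur cluster assembly, cofactors of the respiratory chain, were higher in 3 of 7, with a median of 0.18. The defense response list had 2 of 7 lower and a median of 0.01. Of 5 sulfate transport genes 1 was higher and 2 were lower, and 3 of them make up the tested C4-dicarboxylate transport list. Phenylpropanoid metabolism had 2 tested members, of which 1 was lower.

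**Figure D3:**
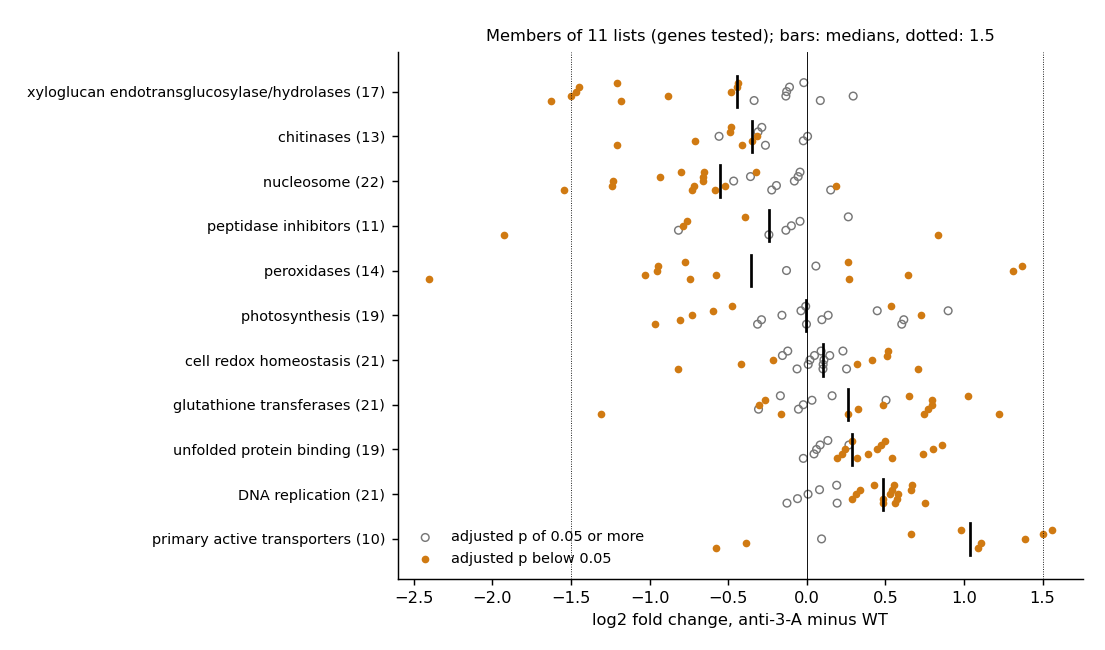
Log2 fold change (*anti-3*-A minus WT, on log2(FPKM + 1)) of each tested member of 11 gene lists, with the number tested in brackets. Filled points have an adjusted p below 0.05, bars mark list medians and dotted lines the DEG threshold of 1.5. The medians run from -0.55 for the nucleosome to 1.03 for primary active transporters, some of which passed the filter only through *anti-3*-A.

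Of the 15 genes that the study names for the phenotypes of the cells, only POPTR_0014s08130 was a DEG. The study named them because they changed in *anti-3* or *OX*, so they were chosen on these samples. Of the 9 named for *anti-3*, 6 were bounded within 1.5-fold of WT, beside 71.9% of all tested genes. Their log2 fold changes ran from -0.63 to 1.24, short of the DEG threshold. They include POPTR_0005s15850, a phosphatidylinositol-4-phosphate 5-kinase that makes a lipid signal of the cytoskeleton, with an FPKM of 89.2, 81.3 and 89.8 in WT and 73.9, 85.4 and 81.7 in *anti-3*-A. The groups overlapped, whereas its mean in *anti-3* was 11.6. POPTR_0005s01840, an inorganic pyrophosphatase, was 50.4 ± 9.22 in WT and 45.9 ± 5.71 in *anti-3*-A, against 13.95 in *anti-3*. POPTR_0004s22210, an enzyme that activates cytokinins, was at 68.1, 64.6 and 65.0 in WT and at 43.8, 38.4 and 44.6 in *anti-3*-A. This was between WT and the 7.85 of *anti-3*, and the log2 fold change of -0.63 had an adjusted p of 0.00243 in limma.

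The alkaline alpha-galactosidase POPTR_0016s05500, linked to leaf senescence, was past the WT level. Its FPKM was 40.6, 35.7 and 37.4 in WT and 70.1, 112 and 95.4 in *anti-3*-A, with 9.75 on average in *anti-3*. The log2 fold change of 1.24 ± 0.12 (limma, adjusted p = 1.26e-06) did not reach the DEG threshold. The UDP-glycosyltransferases POPTR_0001s05400 and POPTR_0009s15190, which attach sugars to small molecules, were slightly above WT, at 70.4 against 55.3 and at 35.7 against 25.9 FPKM, with log2 fold changes of 0.34 and 0.45 (limma, adjusted p = 0.00207 and 0.000382). POPTR_0006s02390, POPTR_0545s00210 and the phosphatase POPTR_0007s09470 had log2 fold changes of -0.05, -0.21 and 0.16, none with an adjusted p below 0.05. Of the 7 genes named for *OX*, 6 were tested and POPTR_0014s08130 was the DEG. POPTR_0016s09180 had an FPKM of 1.23 in WT and 0.47 in *anti-3*-A and did not pass the filter.

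Finally, the fold changes were arranged by identifier. A POPTR identifier gives the scaffold of the *P. trichocarpa* reference and then a number that rises along it, and the first 19 scaffolds are the chromosomes. The order is that of the reference, not of the *P. tomentosa* genome, and the runs described here were chosen after the values were seen, so no test was made. In 14 of the 19, the median log2 fold change over 15877 genes was -0.002, and 49.6% of the genes were above 0. Over 287 bins of 1000 identifier numbers with at least 20 genes each, the bin medians of these scaffolds ran from -0.23 to 0.13. The lowest were on POPTR_0011 and POPTR_0015, with single bins as low as the lowered run described next.

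In 4 runs of identifiers the median was above the WT level by a small amount. The clearest was POPTR_0014 below number 5000, where the median log2 fold change was 0.44 over 250 genes and 86.8% were above 0. In bins of 1000 identifier numbers the median was 0.42 to 0.47 in each of the 5 bins below 5000, and -0.17 to 0.19 in the 14 bins of at least 20 genes after it. For genes of 5 FPKM or more in WT, the median ratio of *anti-3*-A to WT was 1.37 in this run and 0.969 in the rest of the scaffold. POPTR_0001 below number 15000 had a median of 0.21 over 920 genes, against 0.01 over the 1762 genes after it. All of POPTR_0019 (619 genes) and of POPTR_0012 (807 genes) had medians of 0.26 and 0.22. In POPTR_0019, POPTR_0012 and POPTR_0001 below 15000, 76.3%, 78.1% and 74.9% of the genes were above 0, and the bin medians ran from 0.14 to 0.52, from 0.07 to 0.35 and from 0.12 to 0.26. One run was lowered, POPTR_0007 from number 10000 on, with a median of -0.17 over 348 genes, bins of -0.21 to -0.13, and 0.00 for the 499 genes before it.

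The 3 libraries of a group gave nearly the same shift. In POPTR_0014 below 5000 the median differences from WT were 0.42, 0.44 and 0.47 in the *anti-3*-A libraries, and -0.01, 0.00 and -0.01 in the WT libraries, each set against the other WT libraries. In POPTR_0012 they were 0.22, 0.22 and 0.24 in *anti-3*-A. Untreated *anti-3*, which shares the WT libraries with this contrast, showed median log2 fold changes of 0.08 in POPTR_0014 below 5000 and -0.37 after it, and of -0.58 and -0.34 in POPTR_0007 from 10000 and before it. In the same order *OX* had -0.22, -0.29, -0.35 and -0.25. In POPTR_0012 the median was -0.15 in *anti-3*, -0.58 in *OX* and -0.47 in *OX*-H, beside -0.32, -0.24 and -0.14 in the 14 scaffolds. In the same groups POPTR_0019 had medians of 0.03, 0.27 and 0.33, each above the median of the 14 scaffolds in that group. Against WT it was higher in *OX* and *OX*-H as well as in *anti-3*-A, and near WT in *anti-3*. POPTR_0001 below 15000 had -0.142, -0.225 and -0.076, beside -0.311, -0.247 and -0.153 from 15000 on.

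**Figure D4:**
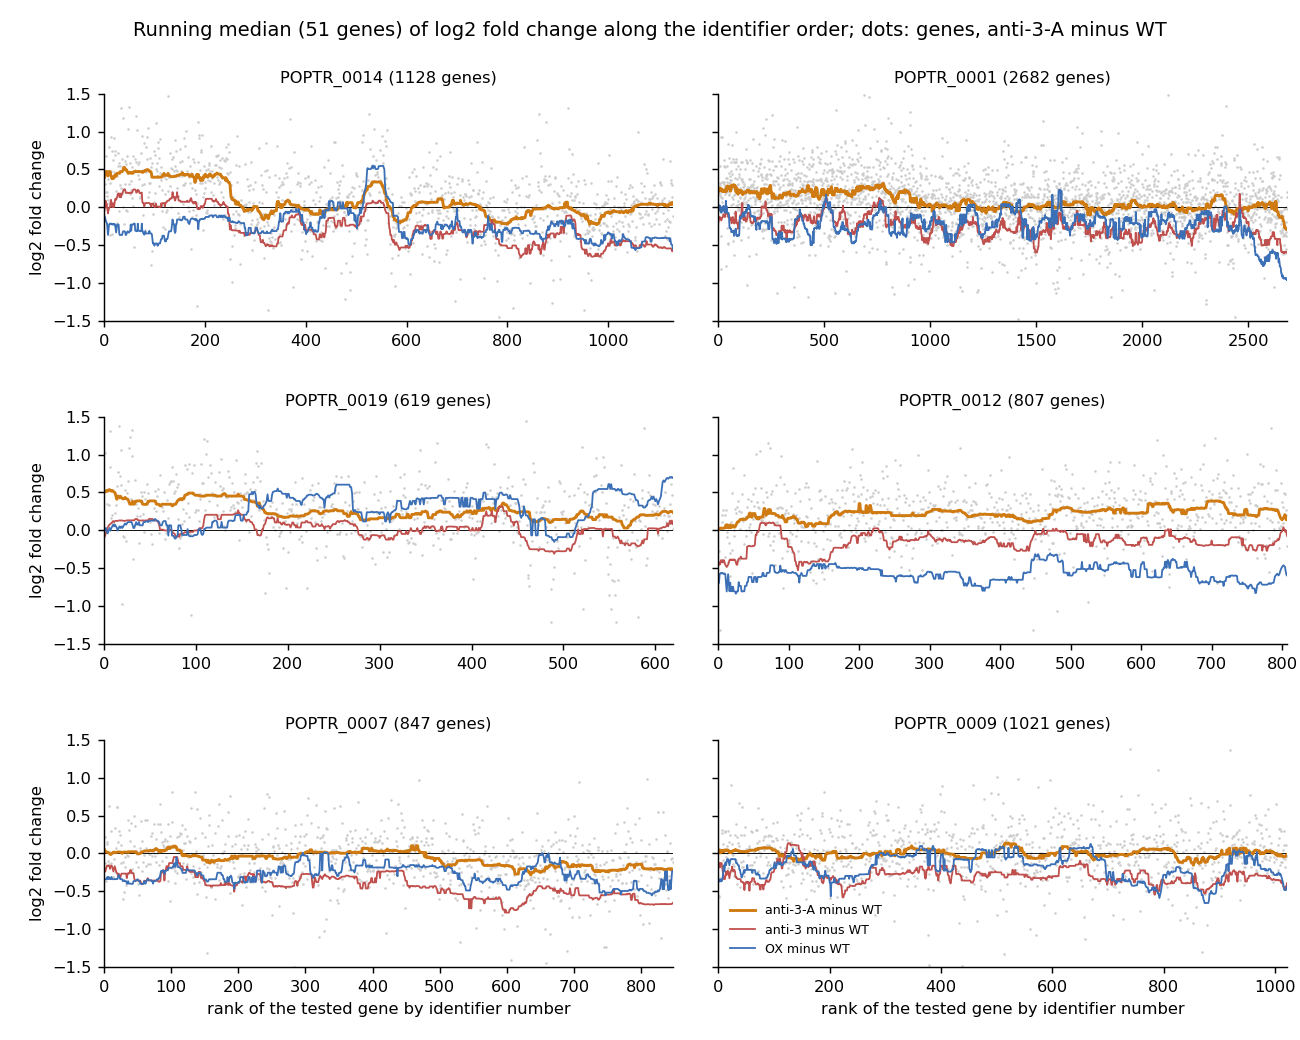
Log2 fold change along 6 scaffolds of the reference, with tested genes ranked by identifier number (x). Grey dots are genes in *anti-3*-A minus WT (those beyond 1.5 in size are not shown), and lines are running medians over 51 genes of *anti-3*-A (orange), *anti-3* (red) and *OX* (blue) minus WT; the orange line drops from about its median of 0.44 to near 0 after 250 genes of POPTR_0014, and stays near 0 on POPTR_0009.

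**Figure D5:**
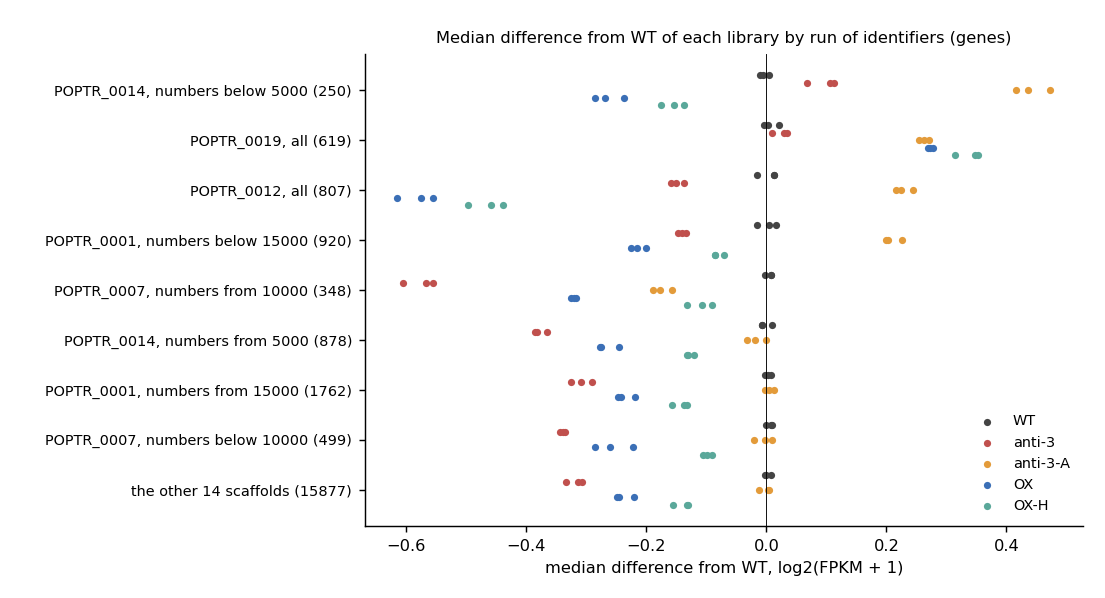
Median difference from WT on the log2(FPKM + 1) scale (x) in each of the 15 libraries, by run of identifiers with the number of genes in brackets; a WT library is set against the other WT libraries. The *anti-3*-A points lie at 0.20 to 0.47 in the 4 raised runs, at -0.19 to -0.16 in the lowered run, and between -0.03 and 0.01 elsewhere.

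The 4 raised runs contain 2596 genes (11.3% of those tested) and 1223 of the 4885 genes that were higher at an adjusted p below 0.05 (25%). Of the 41 higher DEGs, 4 were in POPTR_0014 below 5000, 3 in POPTR_0019, 2 in POPTR_0012 and 1 in POPTR_0001 below 15000. In POPTR_0014 below 5000, 66.4% of the genes were higher and 4% lower at that threshold, beside 17.9% and 19.8% in the 14 scaffolds. In the lowered run of POPTR_0007 the shares were 8.62% higher and 40.8% lower. The histone-type genes POPTR_0007s13930, POPTR_0007s14000 and POPTR_0007s14020 of the nucleosome list lie in that run, and their log2 fold changes of -1.54, -1.24 and -1.24 were larger than its median. Genes named above as higher also lie in raised runs. POPTR_0014s00980, POPTR_0014s03690 and POPTR_0014s03670 are in POPTR_0014 below 5000, with its median of 0.44. The replication gene POPTR_0001s12380 and the peroxidase POPTR_0001s09270 are in POPTR_0001 below 15000, with its median of 0.21. POPTR_0014 also held the most DEGs, 22 of 1128 tested genes (1.95%, beside 0.493% overall). Its 4 DEGs below 5000 were all higher, and all 15 of its lower DEGs had later numbers. With the median of each bin taken off the *anti-3*-A values, an alternative chosen after seeing the data, 105 DEGs were found, of which 98 were among the 113. POPTR_0014s03670, POPTR_0019s11350, POPTR_0003s14360, POPTR_0018s14650 and POPTR_0007s13930 then lay under the fold change threshold. What sets the runs apart was not tested.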

How the data were processed

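Total RNA of 15 libraries was sequenced by the authors on an Illumina HiSeq instrument. The deposited values are FPKM per gene, which the paper calls RPKM. The paper names SOAPaligner/SOAP2 with up to 2 mismatches and the *P. trichocarpa* reference, whereas the submitters' processing notes name Bowtie2 2.2.3, TopHat2 2.0.12 and HTSeq 0.6.1. Which of these made the table is not settled. RNA extraction is likewise given as TRIzol in the paper and a column kit in the labels. The genome release, the use of strand and the handling of multiply matching reads were not given in the sources used here. Left out were the 4 tables that the authors deposited of their own comparisons (log2 ratios and p-values).

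Groups and replicate numbers came from the sample titles. log2(FPKM + 1) was tested with limma 3.58.1 (limma-trend, R 4.3.3), with all 15 libraries in 1 fit, a mean per group, no covariate and no further scaling, on genes that reached an FPKM of 1 in 3 or more of the 6 libraries compared. Benjamini-Hochberg adjustment covered all tested genes. The DEG thresholds were 0.001 for the adjusted p and 1.5 for the absolute log2 fold change. Whole reads were worked back from the steps of 1 read between low FPKM values (Python 3.11.15, numpy 2.4.6, pandas 2.3.3). Each of the 445124 nonzero values gave a whole number to within 0.0001 reads. Both steps were tested on simulated data. Replicate pairs of WT and *anti-3*-A differed by more than sampling noise (chi-square per degree of freedom 3.28 to 6.77), so none was counted as a copy. Figures were drawn with matplotlib 3.10.9.

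Named genes are, among DEGs whose groups do not overlap, the 12 largest rises and 12 largest falls with an annotation, the 2 largest each way without one, annotated ones of the 5 rises and 5 falls with the largest difference in mean FPKM, DEGs on the lists, and the 15 genes the paper names. Other members of lists were named after their values were seen. Of the 22 GO lists fixed, 11 were described by their members and plotted. Annotations are the GO terms and names the paper prints. The reference table, of *P. tomentosa* locus tags, matched 0 of the identifiers, and no sequences were used. Members, lists and tests were chosen with earlier results of these data known. Alternatives were other pseudocounts, filters, scalings, thresholds, sets of libraries, the replicate number as a block, voom on the whole reads, and each replicate left out.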

Additional observations from a re-analysis of the deposited data

How the results depend on the processing

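The number of DEGs depended on the pseudocount, the use of whole reads and the fold change threshold. The 113 DEGs (41 higher, 72 lower) became 233 (101 and 132) with a pseudocount of 0.1, and 174, of which 68 were higher, with 0.5. Voom on whole reads gave 253 (105 and 148). These settings shrink low genes less than a pseudocount of 1, and they called 111, 112 and 112 of the 113. An absolute log2 fold change above 1 gave 463 (190 and 273), and a fold change above 1.5 gave 1711 (871 and 840). With each replicate left out in turn there were 98 to 130 DEGs (38 to 46 higher, 60 to 85 lower), and 15539 to 15820 genes bounded within 1.5-fold of WT. The other filters, scalings, sets of libraries and the adjusted p threshold moved the counts by less than 1.5 times. With the replicate block there were 114 DEGs. Same-numbered libraries of WT and *anti-3*-A did not deviate together (correlations of -0.01, 0.01 and 0.03). This cannot show whether they were grown or handled together.

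Of the 34 named DEGs, 25 stayed past the threshold under all 18 alternative fits that tested them, and no direction reversed. The other 9, with the alternative values nearest 0, were POPTR_0019s11350 (1.49), POPTR_0015s07080 (1.48), POPTR_0014s03670 (1.11), POPTR_0003s14360 (1.47), POPTR_0018s14650 (1.29), POPTR_0015s01000 (-1.45), POPTR_0019s12370 (-1.48), POPTR_0014s14310 (-1.49) and POPTR_0007s13930 (-1.37). The median of POPTR_0014 below 5000 was 0.42 to 0.50 under the alternative fits with a filter on low values (other than the removal of bin medians, which takes it off) and 0.25 with none. In 8 DEGs the higher group had under 100 reads, which limits their precision.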
